A study of Drosophila melanogaster with 6 samples.

Results

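The genes described here are 22 Drosophila melanogaster genes, 21 of the male accessory gland and seminal fluid and 1 cuticle gene. They were chosen by symbol alone, as genes whose annotated symbol starts with Acp or Sfp followed by a digit, plus Sems. Of the 11982 genes with a probe set (the group of array probes for a transcript) annotated to 1 gene, 15 had an Acp symbol, 6 an Sfp symbol and 1 was Sems. Each had exactly 1 such probe set, so no choice between probe sets was needed. A RefSeq gene table of assembly Release 6 lists 48 genes that fit the symbol rule. Besides the 22, 5 were represented only by probe sets shared with another gene and were not members, and 21 were not analysed here.

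The arrays measured RNA of whole adult flies, with 1 array for each of 6 groups. The control genotype was gyc76c[revert], called revert here. The genotype gyc76c[KG03723], called KG03723, carries a mutation in Gyc76C, which encodes a receptor guanylate cyclase. The third, spz[rm7], called rm7, is mutant for spz, whose product Spätzle is the ligand of Toll. Each genotype was injected either with phosphate-buffered saline (PBS) or with the Gram-positive bacterium Staphylococcus saprophyticus, and RNA was taken 12 hours later. The labels do not say how many flies, of which sex or mating status, went into an array, nor whether the 3 lines share a genetic background.

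The paired accessory glands of the male secrete most of the proteins that accompany sperm in the seminal fluid. After mating these proteins act in the female, where they raise egg laying, lower the readiness to mate again, and help to store and release sperm. The set includes peptides and prohormone-like proteins, proteases and protease inhibitors, lectins and proteins of unknown role. Because they are made in male reproductive tissue, their signal in a whole-fly extract moves with the amount of that tissue in the sample as well as with transcription in it. In such bulk samples, fewer cells of a type and less RNA per cell cannot be told apart.

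The annotation did not bear out the group name for 1 of the 22. Acp65Aa is named adult cuticle protein 65Aa and is not an accessory gland gene, so it is given apart and the other 21 are called the seminal genes. Of the 22 members, 21 were above the floor on all 6 arrays. The floor is a signal of 42.7, the 40th percentile of all deposited values, and lower signals were set to it before the log2 was taken. The exception, Sfp65A, was above it on 4 arrays. Transcripts of both sexes were present on every array. Sex peptide (SP), the male peptide that changes female behaviour after mating, read between 4044 and 7519, and Yp1, a yolk protein gene of female fat body, between 27069 and 36417. The highest signal on an array lay between 30455 and 41453.

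Ratios between 2 arrays are values without replicate spread and without a test. Calls come from limma's additive fit of genotype and injection over all 6 arrays and 9540 genes, with Benjamini-Hochberg adjustment over all of them and a threshold of 0.05. The error of that fit is the departure from additivity, with 2 residual degrees of freedom, so a response to injection that differs between genotypes enters as error.

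Most seminal genes had a similar profile over the 6 arrays, while several stood apart. Of the 22 members, 15 read highest on the revert PBS array, against 15.5% of the 10105 genes that exceeded the floor on 1 array or more. Likewise 15 read lowest on the rm7 PBS array, against 14.6%. Acp26Aa encodes ovulin, a prohormone-like protein that stimulates ovulation. It read 5477 after PBS and 2923 after bacteria in revert, 3568 and 3307 in KG03723, and 2373 and 3416 in rm7. The revert PBS array stood highest and the rm7 PBS array lowest, with the other 4 close together. Sems, a serine protease needed for the processing of ovulin in the mated female, read 651 and 323 in revert, 585 and 431 in KG03723, and 301 and 397 in rm7.

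**Figure D1:**
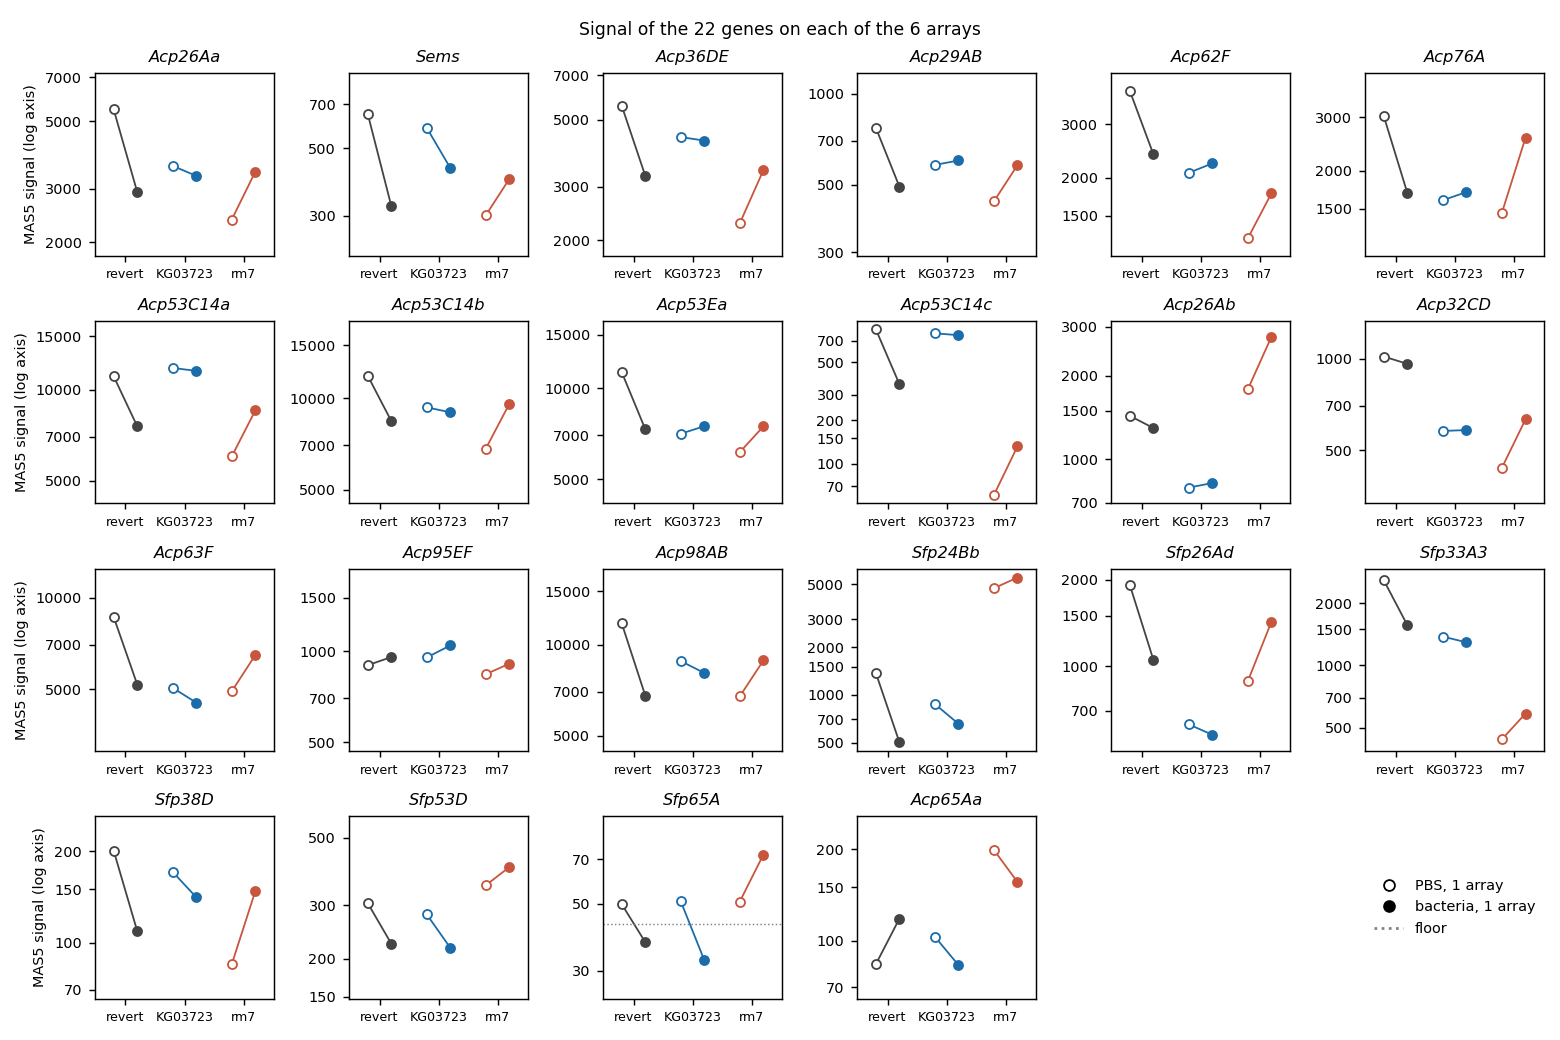
Deposited MAS5 signal (log axis) of each of the 22 genes on the 6 arrays, PBS as open and bacteria as filled circles, joined within a genotype; each circle is 1 array and the dotted line is the floor of 42.7, drawn where it lies in the panel's range. Most panels repeat 1 shape, from high to low in revert, nearly flat in KG03723 and from low to high in rm7, while Acp53C14c, Sfp24Bb, Sfp33A3 and Acp26Ab stand apart by genotype.

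Genes for sperm storage followed the same order. Acp36DE, a glycoprotein needed for sperm storage in the female, read 5558 and 3262 in revert, 4383 and 4265 in KG03723, and 2277 and 3409 in rm7. Acp29AB, a lectin that helps to keep sperm in storage, read 773 and 494 in revert, 582 and 602 in KG03723, and 441 and 581 in rm7. Among the genes related to protease inhibitors, Acp62F read 3873 and 2391 in revert, 2078 and 2232 in KG03723, and 1264 and 1779 in rm7. Here both rm7 arrays lay below all 4 others. Acp76A, a serpin, read 3026 and 1686, 1599 and 1701, and 1453 and 2570 in the same order. Its rm7 bacteria array was second only to revert after PBS.

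How closely the members followed their common profile was measured for each gene as the root mean square difference between its centred log2 signals and the members' median profile. Acp29AB (0.071), Acp53C14b (0.073), Acp98AB (0.078), Acp53Ea (0.080) and Acp26Aa (0.084) were nearest to it. At the far end were Sfp24Bb (1.41), Acp53C14c (1.29), Acp26Ab (0.694), Sfp33A3 (0.691) and the cuticle gene Acp65Aa (0.689). The median profile itself stood at 0.56 on the revert PBS array and -0.39 on the rm7 PBS array on the log2 scale, and between -0.16 and 0.06 on the other 4. Outside the lists, 1648 genes were above the floor on all arrays and had a log2 range of at least 1. Of these, sunz (0.081), CG14930 (0.100), CG14072 (0.103), Dred (0.106), CG42827 (0.109) and CG34021 (0.112) came closest to the members' profile over the 6 arrays. The gene sunz read 182 and 101 in revert, 113 and 118 in KG03723, and 84.2 and 109 in rm7.

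After bacteria, seminal genes read lower in revert, about the same in KG03723 and higher in rm7. In revert 20 of the 22 members lay below their PBS signal, with a median log2 ratio of -0.71, and all genes had a median of 0.0. In KG03723 15 lay below and 7 above, with a median of -0.07. In rm7 21 lay above, with a median of 0.49, and the 1 exception was the cuticle gene Acp65Aa (199 after PBS and 156 after bacteria). Among the 10105 genes that exceeded the floor on 1 array or more, 4882 lay below in revert and 4462 in KG03723. Of the same genes 4928 lay above in rm7. Of the members, 20 were lower in revert and higher in rm7, as were 27.2% of the 10105 genes that exceeded the floor on 1 array or more.

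Few members reached 2-fold after bacteria. In revert 3 of 22 were at least 2-fold lower, against 3.42% of all genes, and 0 were higher, against 0.584%. These were Sfp24Bb, at 1380 after PBS and 503 after bacteria (2.74-fold), Acp53C14c, at 844 and 354 (2.38-fold), and Sems (2.01-fold). In KG03723 0 members were 2-fold apart, against 0.475% of all genes higher and 0.861% lower. In rm7 1 was at least 2-fold higher, against 0.623%, and 0 were lower, against 0.327%. That gene was Acp53C14c, at 61.0 and 132 (2.16-fold).

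**Figure D2:**
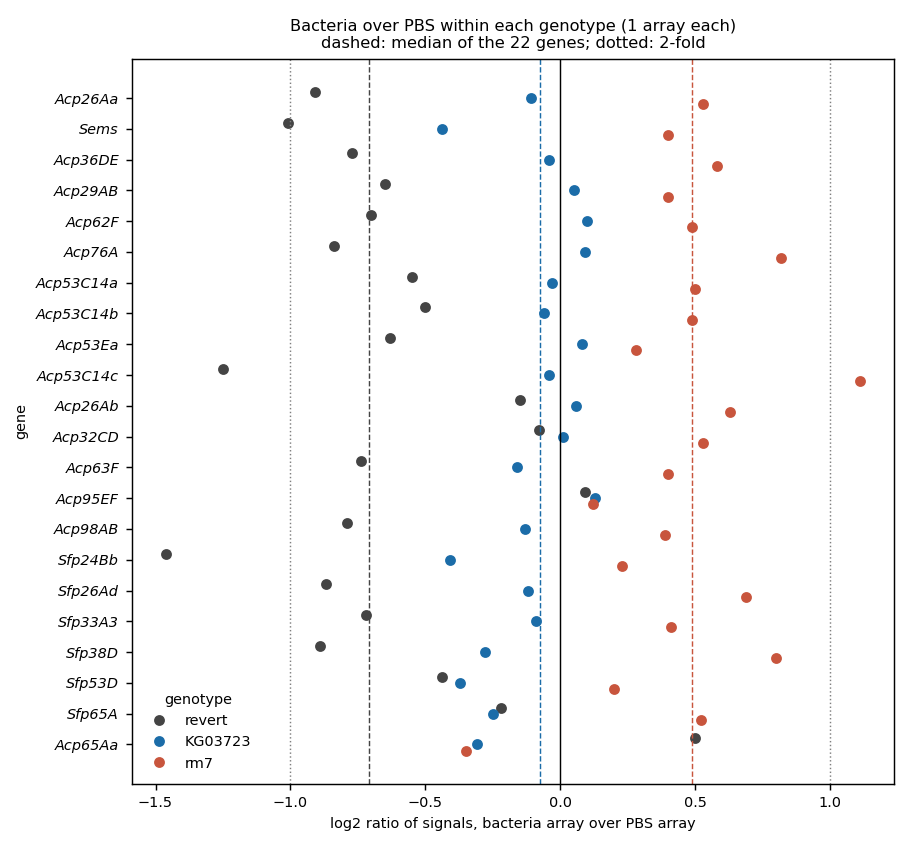
Log2 ratio of the bacteria array to the PBS array for each of the 22 genes in revert, KG03723 and rm7 (1 array per condition, so no error bars); dashed lines are medians of the 22 genes and dotted lines mark 2-fold. Revert ratios lie left of 0 for 20 genes and rm7 ratios right of 0 for 21, with medians of -0.71 and 0.49, while KG03723 ratios cluster near a median of -0.07.

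Over the 3 genotypes together the effect of bacteria passed the limma test for 0 of the 22 members in either direction. It passed for 0.00% of all 9540 genes in either direction. Before adjustment 0 members and 347 genes had a p under 0.05, where 477 of the 9540 would be expected by chance. The members' fitted median was -0.07, since the opposite ratios of revert and rm7 offset each other in this fit.

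Testis genes had ratios after bacteria like those of the seminal genes, and other male-biased genes did so only in part. Testis genes, 29 of 39 listed symbols being above the floor, had a median log2 ratio after bacteria of -0.83 in revert, with 28 below 0. Their median was -0.04 in KG03723 and 0.48 in rm7, with 24 above 0 in rm7. The sperm chromatin gene Mst77F read 3993 and 1985 in revert, 3828 and 3872 in KG03723, and 2743 and 3835 in rm7, and ocn 4589 and 2603, 4142 and 4012, and 2514 and 3874. Summed over the 25 testis genes above the floor on all arrays, the signal was lowest on the revert bacteria array (17982) and highest on the revert PBS array (32716). The 3 measured male-biased genes of head and fat body had medians of -1.45, -0.75 and 0.19 in revert, KG03723 and rm7. In rm7 their ratios ranged from -1.45 to 0.22, with 2 above 0 and 1 below. The dosage compensation gene msl-2 had ratios of 0.26, -0.40 and -0.22 in the same order of genotypes. The sum over the 20 seminal genes above the floor on all arrays ran from 48377 on the rm7 PBS array to 84587 on the revert PBS array. Female fat body genes (Yp1, Yp2, Yp3 and fit) summed to between 91270 and 115301, lowest in revert after bacteria and highest in rm7 after bacteria. The part of the male tissue content of each sample in the seminal gene ratios was not tested.

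Seminal and testis genes were also set side by side between genotypes. In the mutants after bacteria, the members had a median log2 ratio to revert of 0.07 in KG03723 and 0.27 in rm7, and the testis genes one of 0.59 and 0.75. After PBS the members stood at -0.41 in KG03723 and -0.88 in rm7, and the testis genes at -0.17 and -0.63. The members' median was below that of the testis genes in all 4 ratios, of which those after PBS share 1 revert array and those after bacteria the other. The SD within a list was 0.45 to 1.15 for the members and 0.28 to 0.44 for the testis genes. Whether the 2 lists differ was not tested.

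**Figure D3:**
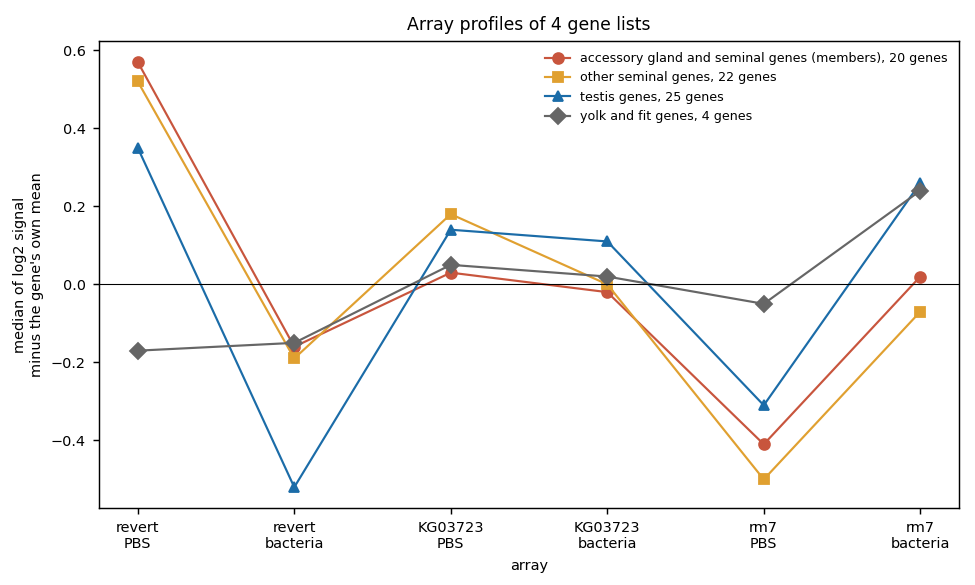
For each array, the median over a gene list of the log2 signal minus the gene's own mean over the 6 arrays, for 20 seminal genes chosen by symbol, 22 other seminal genes, 25 testis genes and 4 female fat body genes, counting genes above the floor on all arrays (1 array per group, no error bars). Both seminal lists peak in revert after PBS (0.57 and 0.52) and are lowest in rm7 after PBS (-0.41 and -0.50), and the testis list is lowest in revert after bacteria (-0.52).

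The members' ratios of rm7 to revert were spread more widely than those of all genes. The SD of the 22 log2 ratios of rm7 to revert was 1.15 after PBS and 0.95 after bacteria, against 0.57 and 0.63 over all genes. For KG03723 against revert it was 0.45 and 0.46, against 0.41 and 0.42. Sfp24Bb, Acp53C14c and Sfp33A3 were picked after their values were seen, as the members farthest apart by genotype. A narrower rm7 spread without them follows from that choice and shows nothing further. Without them the SD of the other 19 was 0.71 after PBS and 0.40 after bacteria for rm7, and 0.47 and 0.41 for KG03723. The ratios of bacteria to PBS within a genotype had an SD of 0.44 in revert, 0.17 in KG03723 and 0.29 in rm7, against 0.40, 0.32 and 0.35.

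In rm7 after PBS, 10 of the 22 members were at least 2-fold lower than in revert, against 4.16% of all genes, and 2 were at least 2-fold higher, against 2.51%. The lower ones were Acp53C14c (13.8-fold), Sfp33A3 (5.86-fold), Acp62F (3.06-fold), Acp36DE (2.44-fold), Sfp38D (2.37-fold), Acp32CD (2.33-fold), Acp26Aa (2.31-fold), Sfp26Ad (2.17-fold), Sems (2.16-fold) and Acp76A (2.08-fold). The higher ones were Sfp24Bb (3.41-fold) and the cuticle gene Acp65Aa (83.4 in revert and 199 in rm7, 2.39-fold). After bacteria only 2 members remained at least 2-fold lower, Acp53C14c (2.69-fold) and Sfp33A3 (2.67-fold), against 2.87% of all genes. Then 2 were at least 2-fold higher, Sfp24Bb (10.9-fold) and Acp26Ab (2.13-fold), against 5.42%.

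Over both injections 4 of the 22 members passed the limma test between rm7 and revert, 3 lower, against 3.0% of all genes, and 1 higher, against 2.61%. Acp53C14c read 844 and 354 in revert, 790 and 768 in KG03723, and 61.0 and 132 in rm7. Both rm7 arrays lay below all 4 others, and the difference to revert was -2.61 ± 0.49 (SE, log2; limma adjusted p = 0.0291). Sfp33A3 read 2577 and 1563 in revert, 1379 and 1293 in KG03723, and 440 and 586 in rm7. Again both rm7 arrays were below the other 4 (log2 -1.98 ± 0.25 SE, limma adjusted p = 0.00657).

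Sfp24Bb, which lies between Sfp24Bd and Sfp24Bc in the RefSeq gene table, was the 1 member that passed the limma test as higher in rm7. It read 1380 and 503 in revert, 875 and 657 in KG03723, and 4710 and 5509 in rm7, so both rm7 arrays were above the other 4 (log2 2.61 ± 0.34 SE, limma adjusted p = 0.00785). Acp32CD read 1017 and 962 in revert, 578 and 582 in KG03723, and 437 and 631 in rm7. It was lower in rm7 (log2 -0.91 ± 0.19 SE, limma adjusted p = 0.0406), while both KG03723 arrays lay between the 2 rm7 arrays.

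Both rm7 arrays were above both revert arrays for 5 members (Acp26Ab, Acp65Aa, Sfp24Bb, Sfp53D and Sfp65A), against 27.4% of all genes, and below both for 4 (Acp32CD, Acp53C14c, Acp62F and Sfp33A3), against 19.5%. The shares of members were thus near those of all genes.

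These counts rest on single arrays and on the settings of the fit. In the limma fit, leaving out the revert bacteria array raised the number of members called lower in rm7, and leaving out the rm7 PBS array reduced it. Acp53C14c differed from revert by -3.5 in the former fit and by -1.73 in the latter. The number called higher rose without the revert PBS or the rm7 PBS array and fell without the rm7 bacteria array. Each of these fits keeps 1 array of a genotype, and no share over all genes is given here for them. Acp53C14c and Acp32CD lost the call without the rm7 PBS array, Acp32CD also without the revert PBS array or either KG03723 array, and Sfp24Bb lost it without the rm7 bacteria array. With the floor at the 60th percentile Acp53C14c differed by -1.18 and lost the call (limma adjusted p = 0.0925), and without the revert PBS array it differed by -1.72. With cyclic loess, the mean over probe sets or no variance trend only Sfp33A3 stayed lower, and with no filter on low values 0 of the 4 passed.

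Neighbouring genes did not share 1 profile. Acp53C14a, Acp53C14b, Acp53Ea and Acp53C14c follow each other with 0 genes listed between them in the RefSeq gene table. Acp53C14a read 11064 and 7564 in revert, 11790 and 11528 in KG03723, and 6023 and 8543 in rm7, and it was the 1 member with both KG03723 arrays above both revert arrays, against 17.1% of all genes. Acp53C14b read 11894 and 8424, 9352 and 9002, and 6830 and 9610 in the same order. Acp53Ea read 11294 and 7317, 7077 and 7493, and 6152 and 7484. Against revert, rm7 differed by -0.35 ± 0.22, -0.31 ± 0.21 and -0.42 ± 0.21 (SE, log2) for these 3, and 0 of them passed the limma test, where Acp53C14c at -2.61 did.

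Acp26Ab and Acp26Aa are likewise neighbours with 0 genes between them. Acp26Ab, a small secreted protein, read 1436 and 1297 in revert, 792 and 823 in KG03723, and 1789 and 2764 in rm7. The 3 genotypes did not overlap, with KG03723 lowest and rm7 highest. Acp26Aa, given above, had overlapping signals in revert and both mutants. Whether RNA of 1 gene binds probes of the other was not checked.

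Between KG03723 and revert 0 of the 22 members passed the limma test, against 0.681% of all genes higher and 0.692% lower. Before adjustment 3 members had a p under 0.05, all of them lower in KG03723. Sfp26Ad read 1922 and 1052 in revert, 626 and 576 in KG03723, and 887 and 1430 in rm7 (log2 -1.24 ± 0.32 SE, limma adjusted p = 0.188). Acp32CD differed by -0.77 ± 0.19 (limma adjusted p = 0.164) and Acp26Ab by -0.76 ± 0.19 (limma adjusted p = 0.176). Both KG03723 arrays were below both revert arrays for 6 members, these 3 and Acp62F, Acp63F and Sfp33A3, against 20.7% of all genes.

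Without the revert bacteria array some members were called lower in KG03723 in the limma fit, and without the revert PBS array some were called higher. Each of these fits keeps 1 revert array, and no share over all genes is given here for them. After PBS 1 member was at least 2-fold lower in KG03723 than in revert, Sfp26Ad (3.07-fold), against 1.33% of all genes, and 0 were higher, against 1.72%. After bacteria 1 was at least 2-fold higher, Acp53C14c (2.17-fold), against 2.17%, and 0 were lower, against 1.24%.

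The mutants also differed from each other. Between rm7 and KG03723, 2 members were higher in rm7, against 2.68% of all genes, and 2 lower, against 3.43%. Higher were Sfp24Bb (log2 2.75 ± 0.34 SE, limma adjusted p = 0.0059) and Acp26Ab (1.46 ± 0.19, limma adjusted p = 0.00706). Lower were Acp53C14c (-3.12 ± 0.49, limma adjusted p = 0.0145) and Sfp33A3 (-1.40 ± 0.25, limma adjusted p = 0.0228). This contrast shares the rm7 arrays with the comparison to revert. With the floor at the 60th percentile Acp53C14c differed by -1.69 here and kept the call. Both lower calls were lost without the KG03723 PBS, KG03723 bacteria or rm7 PBS array, and that of Sfp24Bb without the rm7 bacteria array. Leaving out either revert array raised the number called in both directions, with no share over all genes given here for those fits.

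**Figure D4:**
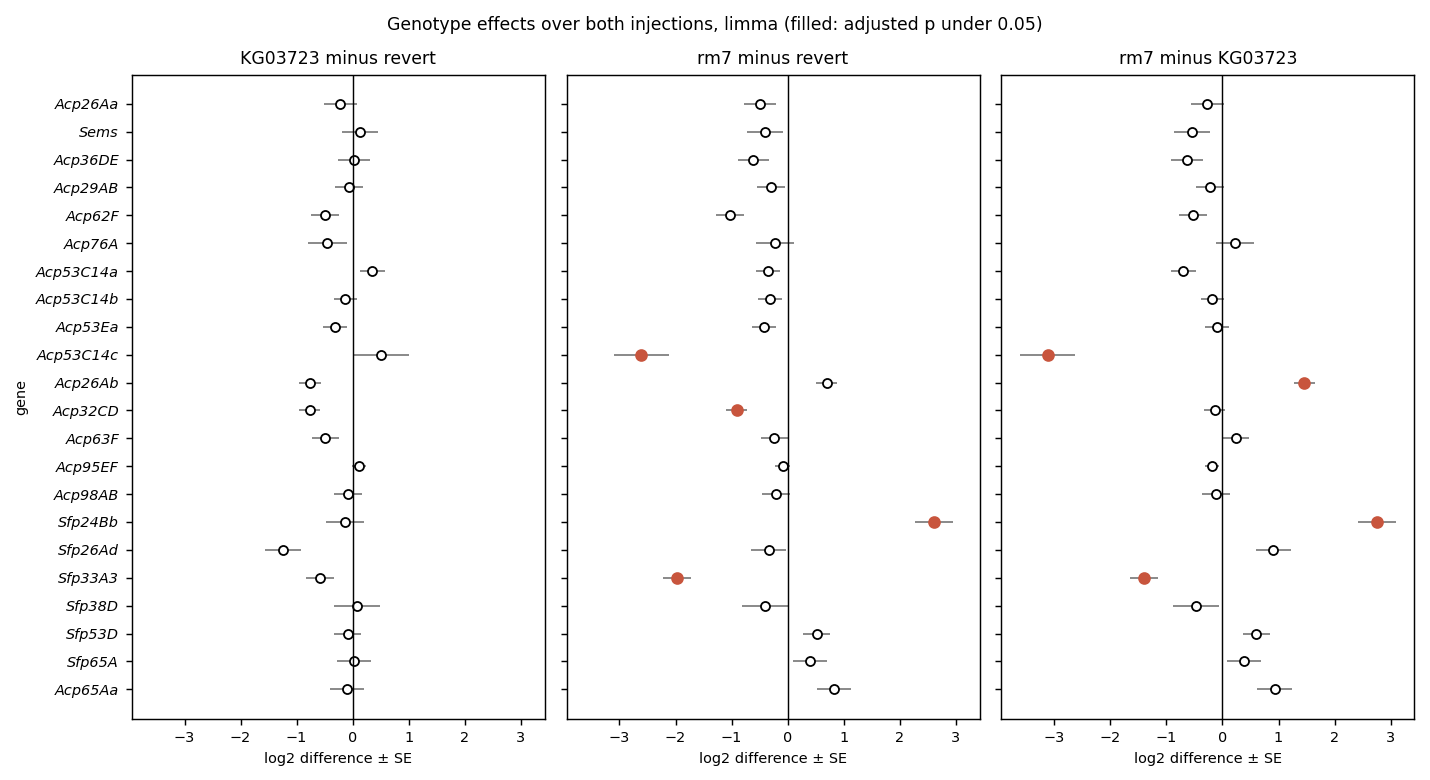
Fitted log2 difference (points) ± SE (bars) of each of the 22 genes for KG03723 minus revert, rm7 minus revert and rm7 minus KG03723, from the additive limma fit over 6 arrays; filled points have an adjusted p under 0.05 over 9540 genes. Filled points number 0, 4 and 4, led by Acp53C14c (-2.61 and -3.12) and Sfp24Bb (2.61 and 2.75).

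The remaining members did not share 1 pattern. Acp63F read between 4507 and 8643 and Acp98AB between 6751 and 11752, both highest in revert after PBS. Acp95EF was the flattest, at 898 and 956 in revert, 953 and 1044 in KG03723, and 839 and 909 in rm7, with no array outside 839 to 1044. Sfp38D read 201 and 109 in revert, 171 and 141 in KG03723, and 84.8 and 148 in rm7. Sfp53D, whose probe set type marks probes that can match more than 1 transcript, read 305 and 224, 280 and 217, and 349 and 401 in the same order, with both rm7 arrays above the other 4. Sfp65A stayed near the floor, from 32.5 to 72.6, so its ratios say little.

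The 22 measured seminal genes with other symbols, of 25 listed, gave a further view of the same fluid. Like the members they stood lower in revert after bacteria (22 of 22 below 0, median -0.67) and higher in rm7 (21 of 22 above 0, median 0.37), with a median of -0.11 in KG03723. SP, the sex peptide, read 7519 and 4860 in revert, 6085 and 5566 in KG03723, and 4044 and 6020 in rm7. Mst57Da read 16290 and 12314, 14227 and 13660, and 10420 and 15544, and Obp56g, an odorant-binding protein gene, 10658 and 7337, 9236 and 8747, and 6559 and 8406. All 3 were highest in revert and lowest in rm7 after PBS.

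In the limma fit 2 of these 22 were lower in rm7 than in revert, against 3.0% of all genes, and 2 higher, against 2.61%, and 0 passed in KG03723 or after bacteria. Dup99B, a peptide of the ejaculatory duct related to sex peptide, read 6653 and 4939 in revert, 8548 and 6450 in KG03723, and 3734 and 3609 in rm7 (log2 -0.64 ± 0.12 SE, limma adjusted p = 0.0321). The other 3, named after their values were seen, were intr, a gene of the sex peptide network (-1.36, limma adjusted p = 0.0281), the serpin gene Spn77Bb (0.75, limma adjusted p = 0.0189) and the odorant-binding protein gene Obp56f (0.82, limma adjusted p = 0.0302). Between rm7 and KG03723, 3 were lower in rm7, against 3.43% of all genes, and 1 higher, against 2.68%. SPR, the receptor of sex peptide, acts in the female and is not a male product of the gland. It read between 228 and 306 on the 6 arrays.

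Genes of the ejaculatory duct and bulb, 6 of 10 listed symbols being measured, included the antibacterial peptide gene Anp (andropin). Anp read 7752 and 7093 in revert, 10336 and 8481 in KG03723, and 1372 and 1698 in rm7. Both rm7 arrays were below the other 4, and the difference to revert was -2.28 ± 0.15 (SE, log2; limma adjusted p = 0.000631). With Dup99B, which is on both lists, 2 of 6 were lower in rm7, against 3.0% of all genes, and 0 higher, against 2.61%. The bulb genes EbpII, EbpIII and Ebp read between 11470 and 19724, and 0 of the 3 passed. Of the 5 measured transcription factors of the gland and of sex (dsx, fru, dve, EcR and prd), 0 passed in any of the 4 limma effects.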

How the data were processed

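For each array the authors deposited linear intensity values of the probe sets, which come from MAS5 per the submitters' processing notes (version not given in the sources used here). Every array has a 2% trimmed mean of 500.0, so the arrays were already scaled. Of 18952 probe sets, 183 controls were left out, and 13647 were annotated to 1 gene, 402 to several and 4720 to none. Gene identifiers of 13544 were found in the RefSeq table, and 0 symbols changed. Where several probe sets named 1 of the 11982 genes, the one with the largest mean over the arrays stood for it.

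Signals under 42.7 were set to that floor and the log2 was taken. Comparisons of 2 arrays carry no test and cover the 10105 genes above it on at least 1 array. The limma 3.58.1 fit (R 4.3.3; variance trend, Benjamini-Hochberg) covers the 9540 genes above it on at least 3. Members, lists and rules were chosen with earlier results of these data known. The genes to name were all 22 members, the 4 genes of each other list with the highest mean signal, and the 6 genes nearest to the members' profile. Of the genes so chosen, the testis genes Mst84Db and Mst84Dc and the head and fat body genes Cyp4d21 and sxe2 are not described singly. With 1 array per group the number of arrays limits every value. The fit was tested on simulated data in which no response to injection differed between genotypes. For rm7 against revert it recovered 60% of log2 changes of 1 and 89% of those of 2. For bacteria it recovered 79% and 95%. With 200 of 9540 genes changed, 7 unchanged genes were also called for rm7 against revert and 17 for bacteria. Alternatives were other normalizations, floors, a pseudocount, the mean over probe sets, a 3-fold threshold and fits without arrays, trend or filter.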

Additional observations from a re-analysis of the deposited data

Results flagged for a closer look

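The ratios of bacteria to PBS had opposite signs in revert and rm7 for the members as a group, with median log2 ratios of -0.71 and 0.49 on 1 array pair each. In the members' median profile the PBS arrays lay far apart, at 0.56 in revert and -0.39 in rm7. The bacteria arrays lay closer together, at -0.16 and 0.06. The difference between genotypes was not tested, since there is no replicate. It was at least 0.5 in both directions for 7 members: Acp26Aa (-0.91 in revert and 0.53 in rm7), Acp36DE (-0.77 and 0.58), Acp53C14a (-0.55 and 0.50), Acp53C14c (-1.25 and 1.11), Acp76A (-0.84 and 0.82), Sfp26Ad (-0.87 and 0.69) and Sfp38D (-0.89 and 0.80).

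A probe set outside the members, annotated jointly to Acp33A and CG15841, had almost no signal in revert (0.409 after PBS and 0.918 after bacteria, far under the floor of 42.7). It read 2237 and 2299 in KG03723 and 4729 and 7132 in rm7. Its signal cannot be assigned to Acp33A alone.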

How the results depend on the processing

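No paired analysis was possible because each group has 1 array and the labels carry no replicate numbers. Counts of members past a fold moved as follows, with no share over all genes given here at these settings. At 3-fold, 0 members were lower after bacteria in revert, 0 higher in rm7, and 0 higher in KG03723 than in revert after bacteria. Against revert, rm7 then had 1 higher and 3 lower members on the PBS arrays and 1 and 0 on the bacteria arrays. With the floor at the 60th percentile or a pseudocount of 50, 0 were higher after bacteria in rm7 and 1 higher in rm7 than in revert after PBS, which was also 1 without Acp65Aa. The higher floor left 1 lower in rm7 than in revert after bacteria. Quantile and cyclic loess normalization moved 0 of these fold counts by over 1.5 times, and 0 medians changed sign under any alternative.

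In the limma fit, cyclic loess, the mean over probe sets or no variance trend each left 1 member lower in rm7 than in revert, and no trend left 0 lower than in KG03723. With no filter on low values 0 members were called in any contrast, and the cause was not tested. Without the revert arrays 4 were higher and 4 lower in rm7 than in KG03723, with no share over all genes given here for that fit. Leaving out 1 array in turn gave, for rm7 against revert, 0 to 2 higher and 1 to 13 lower, for rm7 against KG03723, 1 to 4 and 0 to 5, and for KG03723 against revert, 0 to 2 and 0 to 9. The lone array of that genotype is then assumed to vary like the others. Of 15 alternatives, the rm7-to-revert call held in 14 for Sfp33A3, 13 for Sfp24Bb, 9 for Acp53C14c and 7 for Acp32CD. Calls in fits that leave 1 revert or rm7 array rest on the assumption just given. The direction was kept in all, but several alternatives could not have changed it. The mean over probe sets, no variance trend, no filter, the lower floor or leaving out KG03723 arrays left these differences unchanged. Without 1 revert or rm7 array, Sfp24Bb ran from 1.93 to 3.29 and Sfp33A3 from -2.42 to -1.54. Acp53C14c then ran from -3.5 to -1.72 and Acp32CD from -1.19 to -0.63.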

Other observations

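Probe sets of several genes that carry a symbol of this family gave further values, which cannot be assigned to 1 gene. The probe set of Acp24A4 and CG3513 read 504 and 251 in revert, 382 and 279 in KG03723, and 110 and 143 in rm7. That of Acp1, an adult cuticle protein gene, and CG31904 read 325 and 121, 215 and 209, and 148 and 194 in the same order. The probe set of Sfp93F and CG43061 read between 262 and 453, and that of Sfp24F and CG15431 between 22.2 and 48.2, near or under the floor. Another probe set, of Sfp93F, CG43061 and CG42869, read between 0.649 and 9.91, far under the floor.

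Female reproductive genes gave values of their own. Of 17 eggshell genes 13 were measured, and they split in rm7 after bacteria. There 7 were at least 2-fold below revert, against 2.87% of all genes, and the other 6 were above it. The brightest eggshell genes were among both. The vitelline membrane genes Vm34Ca and Vm26Aa read 33341 and 15188 in revert after bacteria and 41453 and 23963 in rm7. The chorion genes Cp15 and Cp36 read 17553 and 11904 in revert and 4354 and 4474 in rm7. In the limma fit 4 eggshell genes were higher in rm7 than in revert, against 2.61% of all genes, and 2 lower, against 3.0%. The male-biased head and fat body gene Obp99b read 5447 and 714 in revert, 8921 and 2201 in KG03723, and 3576 and 1313 in rm7. Of 3 dosage compensation genes msl-2 alone was measured, at 60.4 to 141.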
